A study of Mus musculus with 7 samples.

Results

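Antibody constant region genes and the genes that carry IgA across the gut wall were read in 7 RNA-seq libraries of mouse intestinal epithelium. The 8 genes were Igha, Ighm, Ighg2b, Igkc, Iglc1, Iglc2, Jchain and Pigr, and they were taken by symbol from the 46671 genes of the deposited table, where each had 1 entry. They were chosen by their FPKM difference between the genotypes in these libraries, so their values are a description and no test of them is offered as support. The knockout mice (cKO, 4 libraries) had MST3, the kinase encoded by Stk24, knocked out in intestinal epithelial cells. The control mice (Ctrl, 3 libraries) were wild type. All were BALB/C mice of 8 weeks kept under specific pathogen free conditions, and no source used here names the Cre driver of the knockout. The treatment label says that no drug was given to either group, whereas the design text names AOM and DSS, a carcinogen and a colitis-inducing agent. The design text calls the mice littermates without saying that each library is a separate mouse, so every spread below is between libraries and may be technical.

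An antibody is built from heavy and light chains, and the heavy chain constant region sets its class: alpha (Igha) for IgA, mu (Ighm) for IgM and gamma (such as Ighg2b) for IgG. Plasma cells below the gut epithelium secrete IgA, joined into polymers by the J chain (Jchain). Epithelial cells carry the polymeric receptor (Pigr) on their basal side, bind J chain-containing IgA and IgM, and release them into the lumen with the cleaved outer part of the receptor attached. Constant region and J chain genes are transcribed in cells of the B lineage, whereas Pigr is transcribed in the epithelium itself. In bulk RNA, fewer cells of a type and less RNA per cell cannot be told apart.

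Some members have close copies, and a read that falls in a shared stretch can be assigned to either gene. The light chain genes Iglc2 and Iglc3 show this most, and the first 300 bases of their coding stretches are printed with those of Iglc1 so that the bases able to tell them apart can be seen. Sequences are from the GENCODE M21 annotation and the GRCm38 genome of C57BL/6J, 5′ to 3′ on the gene's own strand, which is the minus strand in each case. The stretch of Iglc2 lies at chr16:19198554-19198853, Iglc3 at chr16:19065382-19065681 and Iglc1 at chr16:19061772-19062071 in GRCm38. Capitals mark bases that differ from, or have no partner in, Iglc3 (for Iglc2) and Iglc2 (for Iglc3 and Iglc1).
Iglc2: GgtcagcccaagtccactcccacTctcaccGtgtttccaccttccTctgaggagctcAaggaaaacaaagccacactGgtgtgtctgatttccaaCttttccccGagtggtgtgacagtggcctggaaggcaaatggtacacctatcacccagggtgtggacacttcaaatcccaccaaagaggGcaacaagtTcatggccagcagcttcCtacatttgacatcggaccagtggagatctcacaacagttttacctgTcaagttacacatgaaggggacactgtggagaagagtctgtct
Iglc3: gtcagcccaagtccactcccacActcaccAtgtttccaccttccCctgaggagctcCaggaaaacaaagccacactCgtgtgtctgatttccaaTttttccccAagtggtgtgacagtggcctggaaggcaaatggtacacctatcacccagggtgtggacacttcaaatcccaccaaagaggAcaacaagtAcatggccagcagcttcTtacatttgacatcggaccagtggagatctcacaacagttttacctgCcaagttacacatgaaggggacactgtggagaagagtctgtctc
Iglc1: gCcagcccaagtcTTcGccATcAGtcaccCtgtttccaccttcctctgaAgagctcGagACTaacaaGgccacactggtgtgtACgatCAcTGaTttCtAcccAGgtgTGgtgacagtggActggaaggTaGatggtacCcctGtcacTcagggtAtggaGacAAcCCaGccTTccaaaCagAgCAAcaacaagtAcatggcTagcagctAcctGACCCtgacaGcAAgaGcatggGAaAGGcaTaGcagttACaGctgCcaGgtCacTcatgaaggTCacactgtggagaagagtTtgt
Over their whole coding stretches Iglc2 and Iglc3 differed at 11 of 314 aligned bases (96.5% identity), with identical runs of up to 79 bases. Iglc1 was 74.8% identical to Iglc2, so its reads are easier to place.

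Among the gamma genes the nearest copy of Ighg2b is Ighg2c. The first constant exon of each is shown, since Ighg2b is the member on which the comparison of genotypes turns. In GRCm38 the exon of Ighg2b lies at chr12:113307643-113307933 and that of Ighg2c at chr12:113288642-113288932, both on the minus strand. Capitals mark the bases at which the exons differ.
Ighg2b: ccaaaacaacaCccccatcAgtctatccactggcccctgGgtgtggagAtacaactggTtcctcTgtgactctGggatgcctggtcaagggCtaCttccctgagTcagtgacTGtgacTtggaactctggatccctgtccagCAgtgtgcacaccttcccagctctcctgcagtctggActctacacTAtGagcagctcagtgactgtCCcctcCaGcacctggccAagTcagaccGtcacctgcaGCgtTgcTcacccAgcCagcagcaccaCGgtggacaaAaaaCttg
Ighg2c: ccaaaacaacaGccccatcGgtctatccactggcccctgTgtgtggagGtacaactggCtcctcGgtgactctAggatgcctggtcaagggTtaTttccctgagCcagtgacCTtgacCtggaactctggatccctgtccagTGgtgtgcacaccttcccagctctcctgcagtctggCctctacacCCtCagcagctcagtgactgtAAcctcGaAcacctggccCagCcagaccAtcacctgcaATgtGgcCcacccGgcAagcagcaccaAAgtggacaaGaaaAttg
The exons differed at 36 of 291 bases and shared runs of at most 34 identical bases. Over the whole coding stretch Ighg2b was 86.3% identical to Ighg2c, 78.3% to Ighg1 and 77.0% to Ighg3. BALB/c mice carry Ighg2a at the place of Ighg2c in C57BL/6J, and to which gene its reads were assigned was not determined here.

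The targeted gene was looked at first in each library. Stk24 had 2.92, 3.04, 3.85 and 3.53 FPKM (reads scaled by gene length and library size) in cKO, against 19.4, 19.4 and 21.0 FPKM in Ctrl. It fell in cKO, with a difference of -2.42 (SE 0.12) on the log2(FPKM + 0.5) scale used for all differences here (limma adjusted p = 0.000427). Recovered reads per library ranged from 14659708 to 19659622, and 3 reads of a 1 kb gene were worth 0.155 to 0.216 FPKM. Epithelial genes were abundant, with Epcam at 689 to 987 FPKM in cKO and 805 to 919 FPKM in Ctrl. The samples are labelled as colorectal, but all 10 listed markers of small intestine reached the level for testing, against 6 of 10 of colon and rectum. Sucrase-isomaltase (Sis) stood at 558 to 823 FPKM in cKO and 413 to 719 FPKM in Ctrl, while, of the 4 colon and rectum markers below that level, the distal gene Hoxd13 was at 0 in every library and Car1 was at 0 in cKO and at most 0.0705 FPKM in Ctrl. The summed colon and rectum list still came to 776 to 1920 FPKM in cKO and 779 to 1308 FPKM in Ctrl, most of it from Ang4 and the goblet cell mucin Muc2, which the small intestine makes too. The bile acid transporter Slc10a2 of the terminal ileum was at 0.682 to 2.72 FPKM in cKO and 0.287 to 0.524 FPKM in Ctrl. Slc10a2 was singled out after its values were seen, and it did not pass the test over all genes. Its part in the values below was not tested. Of the 10 small intestine markers 3 had a positive and 7 a negative difference. All cKO libraries lay above all Ctrl libraries in 1 of them, Slc10a2, and below in 2, against 5.62% and 4.51% of all genes tested.

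Genes had to average 0.5 FPKM or more to be tested. Over all 13057 such genes, limma called 4 at an adjusted p of 0.05, or 0.0306%, and none of them was higher in cKO. None of the 8 members was called, with adjusted p between 0.428 and 0.873, and limma voom on the recovered reads called none of the 7 it could test (all but Iglc2), against 0.0139% of all genes it tested. At an unadjusted p of 0.05, 1 member passed, Ighg2b, against 8.97% of all genes tested in either direction and 4.24% higher in cKO. All 8 members had a positive difference, against 48.7% of all genes tested, and their median was 0.57 against -0.0077. These counts say nothing beyond the choice of the genes, which used this contrast. Ighg2b and Iglc2 also reached the required mean through the cKO libraries alone, and the other 6 members had a mean of at least 0.5 FPKM in each group.

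**Figure D1:**
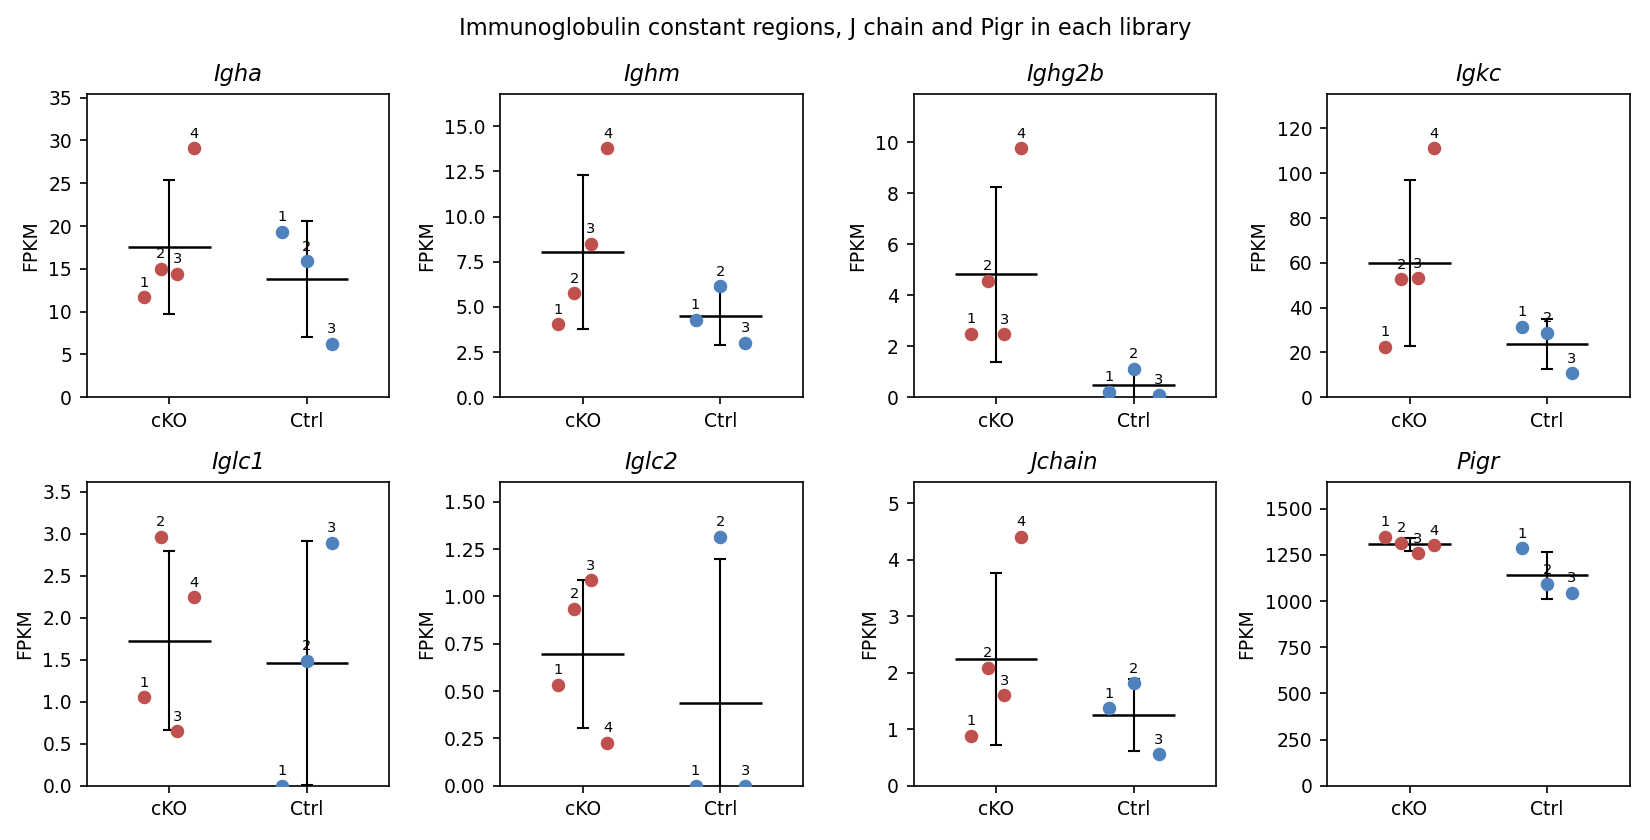
FPKM of the 8 genes in each library, with cKO on the left and Ctrl on the right of each panel; points are libraries numbered by replicate, horizontal lines are group means and bars are SD (n = 4 and 3), cut at 0. Ighg2b is the only panel in which the groups do not overlap, and cKO replicate 4 is the highest library for Igha, Ighm, Ighg2b, Igkc and Jchain.

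Igha, the heavy chain of IgA, overlapped widely between the genotypes. The gene, on the minus strand of chr12:113219824-113223856 (GRCm39, as are all positions from here on), had 11.7, 15.0, 14.4 and 29.1 FPKM in cKO, against 19.3, 15.9 and 6.25 FPKM in Ctrl. The lowest library was Ctrl replicate 3 and the highest cKO replicate 4, and a cKO library exceeded a Ctrl library in 6 of 12 pairs. The means were 17.6 ± 7.83 FPKM in cKO (SD, n = 4) and 13.8 ± 6.79 FPKM in Ctrl (SD, n = 3), a difference of 0.39 (SE 0.42). That difference turned to -0.086 without Ctrl replicate 3 and was 0.12 without cKO replicate 4. The level rested on 254, 310, 257 and 496 reads in cKO and on 460, 327 and 124 reads in Ctrl, so counting error was small beside the spread between libraries.

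The IgM heavy chain Ighm (minus strand of chr12:113382446-113386350) had 4.04, 5.77, 8.50 and 13.8 FPKM in cKO, against 4.28, 6.15 and 3.02 FPKM in Ctrl. The 2 highest values belonged to cKO replicates 3 and 4, while cKO replicates 1 and 2 lay within the Ctrl range. The means were 8.02 ± 4.26 FPKM in cKO (SD, n = 4) and 4.49 ± 1.57 FPKM in Ctrl (SD, n = 3), and the difference was 0.69 (SE 0.39), or 0.40 without cKO replicate 4. Ighm is transcribed in naive B cells as well as in IgM plasma cells. Ighd, the delta heavy chain that naive B cells make alongside it, gave only 0, 3, 17 and 7 reads in cKO and 4, 15 and 0 reads in Ctrl.

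Ighg2b, the heavy chain of IgG2b, set the genotypes furthest apart. The gene, on the minus strand of chr12:113267934-113271553, had 2.49, 4.56, 2.48 and 9.76 FPKM in cKO, against 0.211, 1.12 and 0.101 FPKM in Ctrl. Every cKO library lay above every Ctrl library, a pattern shown by 5.62% of all genes tested (10.1% in either direction), and cKO replicate 4 was the highest. The values came from 54, 94, 44 and 166 reads in cKO and from 5, 23 and 2 reads in Ctrl. The means were 4.82 ± 3.43 FPKM in cKO (SD, n = 4) and 0.478 ± 0.560 FPKM in Ctrl (SD, n = 3), a ratio of 10.1. On the log2 scale the difference was 2.39 (SE 0.50), with an adjusted p of 0.428 in limma over all genes and of 0.528 in limma voom, so it was not called. The ratio was 6.65 without cKO replicate 4, 7.24 without Ctrl replicate 3 and 30.9 without Ctrl replicate 2, whose 23 reads made up most of the Ctrl signal.

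The other gamma genes were close to the limit of counting. Ighg1 gave 0, 7, 17 and 15 reads in cKO and 3, 5 and 0 in Ctrl. Ighg2c gave 3, 14, 1 and 17 reads in cKO and 3, 0 and 7 in Ctrl. Ighg3 gave 2, 27, 28 and 14 reads in cKO and 0, 21 and 0 in Ctrl, a difference of 0.86 (SE 0.55, limma adjusted p = 0.672). The groups overlapped in each of these 3 genes, unlike Ighg2b. Ighe, the heavy chain of IgE, had no read in any library, which allows up to 3 reads in each.

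Shares of the heavy chain classes within a library set aside how much antibody transcript it held in all. Igha took 63.2%, 53.7%, 49.7% and 52.0% of the summed heavy chain FPKM in cKO, against 79.6%, 62.8% and 63.8% in Ctrl. It was the most abundant class in every library, with cKO replicate 1 and Ctrl replicates 2 and 3 at nearly the same share. The means were 54.7% ± 5.93 in cKO (SD, n = 4) and 68.7% ± 9.42 in Ctrl (SD, n = 3). Ighm took 24.1% ± 3.82 in cKO (SD, n = 4) and 24.3% ± 6.60 in Ctrl (SD, n = 3), so its means differed by less than the spread between libraries.

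The gamma genes together took 14.9%, 25.0%, 17.0% and 22.4% of heavy chain FPKM in cKO, against 1.93%, 9.34% and 5.41% in Ctrl. No cKO library came as low as a Ctrl library. Counted as reads, gamma made up 59 of 420 heavy chain reads in cKO replicate 1, or 14.0% (exact Clopper-Pearson 95% interval 10.9% to 17.7%), the lowest of the cKO libraries. In Ctrl replicate 2, the highest of the Ctrl libraries, 49 of 545 reads were gamma, or 8.99% (6.73% to 11.7%). These intervals cover counting error only, and those of the 2 libraries overlap slightly. Ighg2b, already chosen for its difference, made up most of this signal in cKO, at 50.2% to 90.5% of gamma FPKM, and 19.1% to 47.4% of it in Ctrl. The separation of the groups in the gamma share is therefore no separate support. The groups overlapped in each of the other gamma genes, and the share was not computed without Ighg2b.

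**Figure D2:**
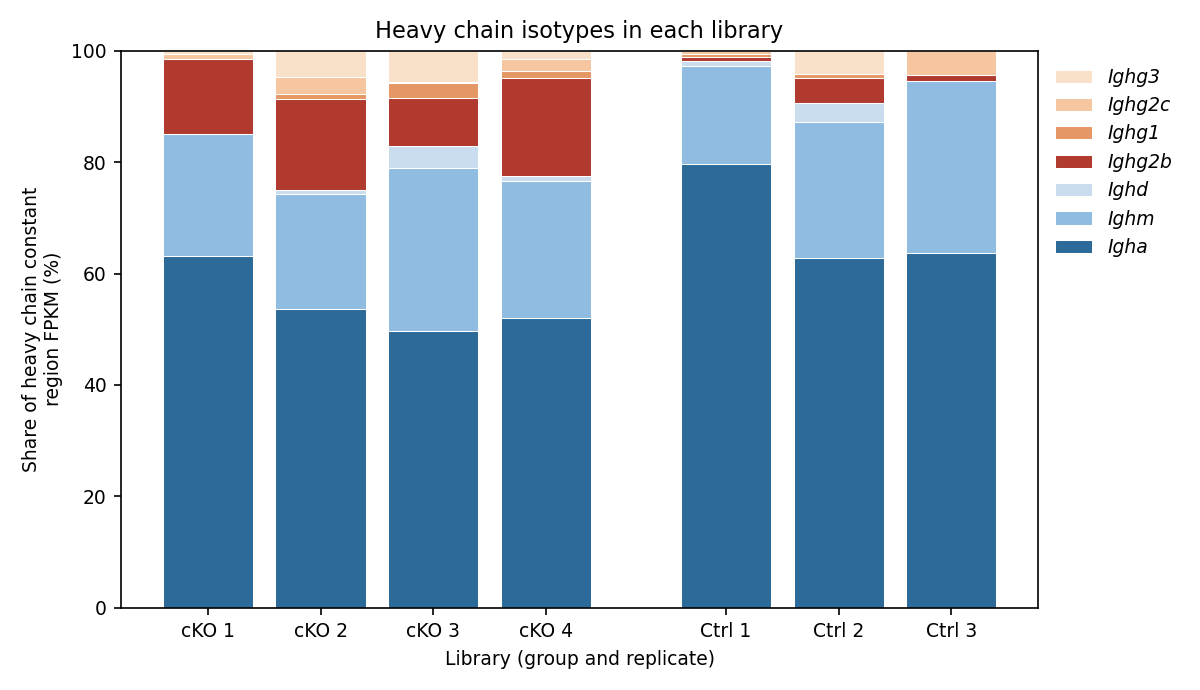
Share of the summed FPKM of heavy chain constant regions taken by each gene, as stacked bars that each add to 100%, for the 4 cKO libraries (left) and the 3 Ctrl libraries (right). Igha is the largest block in every bar, and the Ighg2b block spans 8.54% to 17.5% in cKO against 0.867% to 4.43% in Ctrl.

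Light chains followed the mouse pattern of mostly kappa. Igkc, the single kappa constant gene (plus strand of chr6:70703419-70703738), had 22.5, 52.6, 53.2 and 111 FPKM in cKO, against 31.4, 28.8 and 10.8 FPKM in Ctrl. The cKO replicates 2, 3 and 4 lay above all Ctrl libraries and cKO replicate 1 lay below Ctrl replicates 1 and 2. The means were 59.9 ± 37.1 FPKM in cKO (SD, n = 4) and 23.7 ± 11.2 FPKM in Ctrl (SD, n = 3), and the difference was 1.24 (SE 0.54). It was 0.77 without Ctrl replicate 3 and 0.88 without cKO replicate 4, the libraries with the lowest and the highest value. Igkc was the most abundant of the constant region genes in each library, resting on 128 to 495 reads in cKO and 56 to 195 reads in Ctrl.

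The lambda genes were near the limit of detection. Iglc1 (minus strand of chr16:18880502-18880821) gave 6, 16, 3 and 10 reads in cKO, or 1.06, 2.97, 0.646 and 2.25 FPKM, against 0, 8 and 15 reads in Ctrl, or 0, 1.49 and 2.90 FPKM. The groups overlapped over nearly their whole range, and the difference of 0.44 (SE 0.66) turned to -0.36 without Ctrl replicate 1. Iglc2 (minus strand of chr16:19017286-19017602) gave 3, 5, 5 and 1 reads in cKO, or 0.533, 0.936, 1.09 and 0.227 FPKM, against 0, 7 and 0 reads in Ctrl, or 0, 1.31 and 0 FPKM. The highest value was in Ctrl replicate 2, and the difference was 0.57 (SE 0.51), or 1.19 without Ctrl replicate 2 and 0.26 without Ctrl replicate 1 or 3. Given the near identity of Iglc2 and Iglc3 printed above, the split of such few reads between them is uncertain. Iglc3 itself gave 3, 1, 3 and 9 reads in cKO and 0, 8 and 0 in Ctrl, and Iglc4 none. Igkc took 91.4% to 96.1% of light chain FPKM in cKO and 78.9% to 100% in Ctrl, with no lambda read at all in Ctrl replicate 1.

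Light chain FPKM exceeded heavy chain FPKM in every library. The ratio was 1.33, 2.03, 1.91 and 2.07 in cKO, against 1.29, 1.31 and 1.40 in Ctrl. The cKO replicates 2, 3 and 4 showed more light chain per heavy chain than any Ctrl library, while cKO replicate 1 lay among them.

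The J chain, which joins IgA and IgM into polymers, was low throughout. Jchain (minus strand of chr5:88667668-88675756) had 0.884, 2.09, 1.61 and 4.41 FPKM in cKO, against 1.37, 1.81 and 0.558 FPKM in Ctrl. The highest value was again in cKO replicate 4 and the lowest in Ctrl replicate 3, with the rest intermixed. The means were 2.25 ± 1.52 FPKM in cKO (SD, n = 4) and 1.25 ± 0.637 FPKM in Ctrl (SD, n = 3). The difference of 0.57 (SE 0.44) was 0.24 without cKO replicate 4 and 0.25 without Ctrl replicate 3. Igha FPKM was 6.60 to 13.2 times that of Jchain in cKO and 8.77 to 14.1 times in Ctrl.

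Pigr, the epithelial receptor that carries polymeric IgA, was among the most abundant transcripts of the tissue. It ranked between 32 and 52 among the 46671 genes of a library, whereas Igkc ranked between 693 and 4660 and Igha between 2278 and 6406. Pigr (plus strand of chr1:130754421-130779986) had 1348, 1316, 1260 and 1303 FPKM in cKO, against 1285, 1091 and 1046 FPKM in Ctrl. In FPKM a cKO library was above a Ctrl library in 11 of 12 pairs, the exception being cKO replicate 3 against Ctrl replicate 1. The means were 1307 ± 36.7 FPKM in cKO (SD, n = 4) and 1141 ± 127 FPKM in Ctrl (SD, n = 3), a ratio of 1.15 and a difference of 0.20 (SE 0.18) that lay between 0.14 and 0.29 with any 1 library left out and was 0.38 after quantile normalization. The adjusted p over all genes was 0.758 in limma. Pigr FPKM was 44.8 to 116 times that of Igha in cKO and 66.4 to 167 times in Ctrl. Across the 7 libraries Pigr spanned 1046 to 1348 FPKM, while Igha, its main cargo, spanned 6.25 to 29.1 FPKM.

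**Figure D3:**
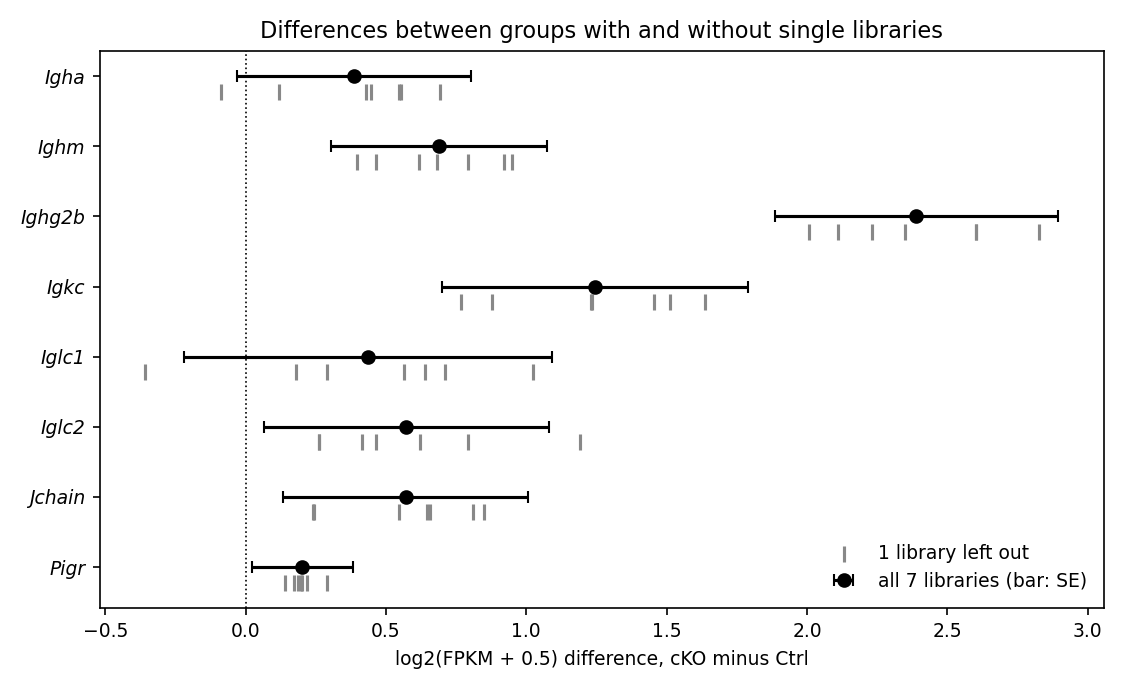
Difference of each gene on the log2(FPKM + 0.5) scale, cKO minus Ctrl; black points are the values from all 7 libraries with their SE, and grey ticks are the values with 1 library left out. The ticks of Ighg2b lie between 2.01 and 2.83, and Igha and Iglc1 each have 1 tick below 0.

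The abundant constant region genes and Jchain varied together from library to library. Summed over all constant region genes, the signal was 33.9, 59.2, 55.0 and 97.1 RPM (reads scaled to the total reads of the library) in cKO, against 40.4, 42.7 and 17.5 RPM in Ctrl. The highest library was cKO replicate 4 and the lowest Ctrl replicate 3, with cKO replicate 1 below Ctrl replicates 1 and 2. Across the 7 libraries Pearson's r on the log2 scale was 0.945 between Igkc and Jchain, 0.930 between Ighm and Igkc, 0.901 between Igha and Jchain and 0.882 between Igha and Igkc. It was 0.566 between Igha and Pigr and -0.27 between Igha and Iglc1. These are descriptions over 7 libraries in which the genes were chosen for this contrast. The labels name no batch, so whether the libraries were prepared together is not known.

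For Igha, Igkc, Jchain and Pigr, the nearest other genes had r at least as high as the members had with each other. Among the 11416 genes that averaged 1 FPKM or more, the 3 nearest to Igha were Echs1 (r = 0.986), Copg1 (0.979) and Ilk (0.977). The nearest to Igkc were Fnta (0.982), Glud1 (0.980) and Maoa (0.970), and the nearest to Jchain were H2bu2 (0.986), Maoa (0.982) and Glud1 (0.956). The nearest to Pigr were Gm6563 (0.994), Setmar (0.978) and Nup88 (0.967). None of these is an immunoglobulin gene, and the list was the same with immunoglobulin genes left out. Each r is among the highest of 11416 taken over only 7 libraries. How high r would run by chance in such a search was not tested.

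Antibody-forming clones carry rearranged V segments, and different clones can use the same segment. Reads on the variable segments thus give a second view of the same cells but do not count clones. Of the 382 V, D and J segments listed, 54, 86, 60 and 77 had a read in cKO and 50, 62 and 18 in Ctrl. Segment reads came to 8.29, 15.7, 12.1 and 20.8 RPM in cKO, against 6.26, 8.86 and 7.09 RPM in Ctrl. The cKO replicates 2, 3 and 4 were above every Ctrl library and cKO replicate 1 was not. The commonest heavy chain V segment took 10.5% to 12.4% of heavy V reads in cKO and 13.0% to 26.3% in Ctrl, where it rested on 6 to 12 reads; it was another gene in each of the 7 libraries. Ctrl replicate 3 stood apart with reads on only 7 of 183 heavy V segments and 11 of 162 kappa V segments.

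Few segments were abundant enough to test. Of 167 kappa segments 9 were tested, 6 with a positive and 3 with a negative difference; of 207 heavy segments 8 were tested, 7 positive and 1 negative; and of 8 lambda segments 2 were tested, both positive. No segment was called. A low gene can reach the required mean through the cKO libraries alone, so these signs are partly set by the filter. Iglv1 passed in that way, and Iglj3p passed through cKO replicate 4 alone. Of all genes tested, 48.7% had a positive difference. The lambda V gene Iglv1 had 0.160, 1.69, 1.18 and 3.07 FPKM in cKO, against 0.294, 0.339 and 0 FPKM in Ctrl, a difference of 1.31 (SE 0.53, limma adjusted p = 0.542). The most abundant kappa segments overlapped between the groups. Igkv1-110 lay at 0.665 to 4.63 FPKM in cKO and 0.866 to 1.73 FPKM in Ctrl, and Igkv10-96 at 0.798 to 5.83 FPKM in cKO and 0.747 to 1.43 FPKM in Ctrl.

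**Figure D4:**
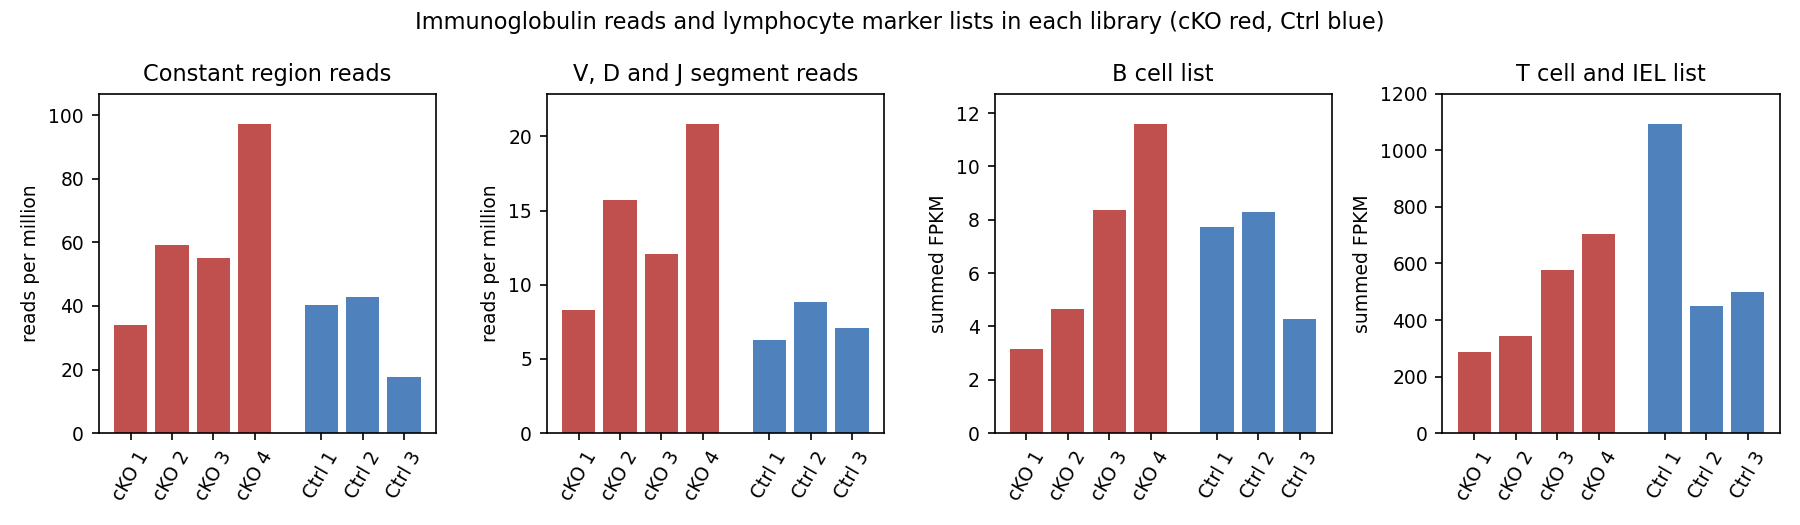
From left to right, reads on constant regions and on V, D and J segments, both in RPM, and the summed FPKM of the B cell list and of the list of T cells and intraepithelial lymphocytes (IEL), 1 bar per library, with cKO in red and Ctrl in blue. Antibody reads are highest in cKO replicate 4 at 97.1 RPM, whereas the T cell sum is highest in Ctrl replicate 1.

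Markers of the cells that make antibody were mostly at very low levels. Of 12 plasma cell markers 7 could be tested, 3 with a positive and 4 with a negative difference, and none was called. Jchain, a member chosen by its difference, was among the 3 positive ones, so this count is not separate from the members. The summed FPKM of the 12 markers was 59.9 to 67.2 in cKO and 55.0 to 66.7 in Ctrl. Most of it came from Sdc1 and Cd38, which epithelial cells also express. Sdc1 stood at 23.7 to 30.4 FPKM in cKO and 25.3 to 33.0 FPKM in Ctrl. Cd38, an ectoenzyme, had 24.7 to 30.9 FPKM in cKO and 21.9 to 25.3 FPKM in Ctrl, a difference of 0.27 (SE 0.11, limma adjusted p = 0.547). The plasma cell receptor Tnfrsf17 was at 0 in every library. Derl3, another marker of plasma cells, had a difference of -0.44 (limma adjusted p = 0.672). Below the level for testing, and picked after their values were seen, were Mzb1 and Pou2af1, both higher on average in cKO. Mzb1, a chaperone of antibody assembly, had 0.745, 0.262, 0.912 and 0.634 FPKM in cKO, against 0.227, 0.394 and 0 FPKM in Ctrl. Pou2af1, a co-activator of B-lineage genes, had 0.197, 0.324, 0.510 and 0.700 FPKM in cKO, against 0.0402, 0.162 and 0.0482 FPKM in Ctrl. All cKO libraries lay above all Ctrl libraries, as in 5.62% of all genes tested. Genes below the level for testing were not counted there, so that share may not hold for Pou2af1. Of the 12 markers 5 were below that level, and those not named here may go either way.

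Of 12 B cell markers 3 could be tested, 1 with a positive and 2 with a negative difference, and none was called. Their sum was 3.16, 4.66, 8.38 and 11.6 FPKM in cKO, against 7.72, 8.29 and 4.28 FPKM in Ctrl. The antigen receptor component Cd79a had 0.112, 0.947, 1.31 and 2.15 FPKM in cKO, against 0.154, 1.84 and 0.123 FPKM in Ctrl. Pax5, the transcription factor that defines B cells but not plasma cells, gave 1, 4, 12 and 18 reads in cKO and 0, 15 and 0 in Ctrl. Thus cKO replicates 3 and 4 and Ctrl replicate 2 held the most B cell transcripts, and Ighd reads were highest in cKO replicate 3 and Ctrl replicate 2. Cd79b lay at 0.960 to 2.57 FPKM in cKO and 1.46 to 2.05 FPKM in Ctrl, and Cd37 at 1.49 to 5.49 FPKM in cKO and 2.60 to 5.21 FPKM in Ctrl. The part of lymphoid tissue in the differences above was not tested.

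Of 8 follicle and Peyer's patch markers 3 were tested and none was called. Bcl6, a regulator of germinal centre B cells, lay at 1.68 to 3.18 FPKM in cKO and 1.57 to 2.50 FPKM in Ctrl. Spib, a factor of M cells and B cells, lay at 2.20 to 4.25 FPKM in cKO and 2.85 to 3.84 FPKM in Ctrl. Of 12 markers of T cells and intraepithelial lymphocytes 11 were tested, 1 with a positive and 10 with a negative difference, and none was called. Itgae, the integrin that holds these cells in the epithelium, had 7.10, 9.66, 14.5 and 14.7 FPKM in cKO, against 25.4, 11.8 and 13.6 FPKM in Ctrl (difference -0.51, SE 0.32, limma adjusted p = 0.668), and the difference was -0.19 without Ctrl replicate 1. The summed list was lowest in cKO replicates 1 and 2 and highest in Ctrl replicate 1. All 4 tested myeloid markers had a negative and uncalled difference, and of the 2 tested stromal markers Lyve1 was positive (0.29) and Dcn negative. Dcn, a stromal matrix gene, had 0.588, 0.536, 1.77 and 6.25 FPKM in cKO, against 2.13, 0.821 and 4.70 FPKM in Ctrl. It was highest in cKO replicate 4, the library richest in antibody transcripts. The next highest value was in Ctrl replicate 3, the library poorest in them.

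Genes of polymeric antibody assembly and of the induction and homing of IgA cells, with some antibody receptors, made up a list of 16. Of these 7 were tested, 2 positive and 5 negative, and none was called. Ccl28, an epithelial chemokine for IgA-secreting cells, had 17.5, 13.1, 9.15 and 12.4 FPKM in cKO, against 10.9, 6.62 and 11.1 FPKM in Ctrl, a difference of 0.43 (SE 0.25, limma adjusted p = 0.634) that was 0.20 without Ctrl replicate 2. Ccl25, the small intestinal homing chemokine, was far higher in both, at 137 to 177 FPKM in cKO and 113 to 177 FPKM in Ctrl. Its receptor Ccr9 had 0.910, 1.55, 2.57 and 2.32 FPKM in cKO, against 2.53, 2.52 and 2.55 FPKM in Ctrl (difference -0.44, limma adjusted p = 0.653), and the difference was -0.22 without cKO replicate 1. Tgfb1, the cytokine that directs switching to IgA, had 1.05, 1.51, 1.72 and 2.45 FPKM in cKO, against 2.88, 2.63 and 2.05 FPKM in Ctrl (difference -0.50, limma adjusted p = 0.573).

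Receptors and transcription factors known to act on Pigr in epithelium were counted in the same way. Of 13 listed genes 12 were tested, 6 positive and 6 negative, with no call. Ifngr2, a chain of the interferon gamma receptor, had 85.0 to 131 FPKM in cKO and 89.2 to 111 FPKM in Ctrl. Tnfrsf1a, a receptor of TNF, had a difference of -0.25 (limma adjusted p = 0.646). The NF-kB subunit Rela had a difference of -0.17 (limma adjusted p = 0.671) and Relb one of -0.23 (limma adjusted p = 0.694).

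The machinery that folds and exports antibody, much of which secretory epithelium uses too, was tested in full. Of 15 genes 7 had a positive and 8 a negative difference, and none was called. Ssr4, a subunit of the translocon-associated complex, had 106.7, 100.4, 90.1 and 98.1 FPKM in cKO, against 138, 114 and 118 FPKM in Ctrl, a difference of -0.32 (SE 0.12, limma adjusted p = 0.542) without overlap. Ero1b, an oxidase that supports disulfide formation, had 4.25, 3.48, 3.08 and 5.03 FPKM in cKO, against 2.52, 3.01 and 3.07 FPKM in Ctrl, a difference of 0.39 (limma adjusted p = 0.554), again without overlap. Groups that do not overlap were found in 1 gene of the list in each direction, against 5.62% of all genes tested with cKO above and 4.51% with cKO below. Derl3, given above, helps to clear misfolded proteins. Fkbp11, a folding enzyme, had a difference of -0.58 (limma adjusted p = 0.573), or -0.31 without Ctrl replicate 3. Hsp90b1, with the highest mean of the list over all 7 libraries, stood at 147 to 204 FPKM in cKO and 147 to 160.3 FPKM in Ctrl.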

How the data were processed

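The deposited table gave FPKM per gene and library, computed by the authors, with gene lengths and GRCm39 coordinates. Reads were aligned with HISAT2, per the submitters' processing notes. No version of it, counting program, strand setting or annotation release is named in what was used here. Multiplied by gene length, 100% of the values were whole multiples of a library's step (within 0.01), which gave the reads behind them. The sizes behind the deposited FPKM were 0.891 to 1.10 times the recovered totals. No pair of libraries agreed within sampling noise (smallest chi-square over its degrees of freedom 19.5). The cKO libraries were closest within replicates 1 and 2 (19.5) and within replicates 3 and 4 (26.8). Across those pairs the ratio was 50.9 to 73.5, and between cKO and Ctrl libraries it was 34.0 to 71.4. The source of this grouping was not tested.

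Groups were compared with limma 3.58.1 in R 4.3.3 (lmFit, eBayes with trend, 2-sided) on log2(FPKM + 0.5), a scale that understates differences of low genes, where the mean FPKM reached 0.5. Benjamini-Hochberg adjustment ran over all 13057 genes, and the fit was tested on simulated data. Shares of reads carry exact Clopper-Pearson 95% intervals (SciPy 1.17.1). limma voom used genes with at least 10 reads in 3 libraries. The alternatives were other pseudocounts, filters, scalings, variance models and weights, the replicate block (without cKO replicate 4), and leaving out each library.

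The members and lists were chosen with earlier results of these data known. Named genes were the members, Stk24, per list the 3 smallest p and the most abundant tested gene (the 2 most abundant for regions, epithelium and segments), less some of these for length, and the 3 nearest genes by Pearson's r. Mzb1, Pou2af1, Pax5, Tnfrsf17, Epcam, Sis, Hoxd13, Car1, Slc10a2 and the further constant genes were added after their values were seen.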

Additional observations from a re-analysis of the deposited data

Results flagged for a closer look

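In 3 of 67 sets of 4 cKO libraries looked at, 1 library stood apart from the other 3 by Dixon's test at the 95% level, and chance marks about 1 set in 20. Each time it was cKO replicate 4. Fkbp11, a folding enzyme of secretory cells, was at 2.28 FPKM there, against 3.86 to 4.05 FPKM in the other cKO libraries. The heavy chain V segment Ighv3-6 was at 3.88 FPKM there, from 16 reads, against 0.190 to 0.698 FPKM in the other cKO libraries. The lambda joining segment Iglj3p was at 5.67 FPKM there and at 0 in all 6 other libraries; it is 38 bases long and the value rests on 3 reads.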

How the results depend on the processing

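Of 158 results for the members under alternatives, 156 kept their sign and stayed uncalled. The others were Igha, at -0.086 without Ctrl replicate 3, and Iglc1, at -0.36 without Ctrl replicate 1; with any 1 library left out, Igha ran from -0.086 to 0.69 and Iglc1 from -0.36 to 1.02. The adjusted p of Ighg2b ran from 0.260 to 0.806 over its alternatives, and its difference from 1.88 to 3.64. The number of genes called fell to 1 with a pseudocount of 0.1, with no filter or with a mean of at least 1 FPKM. It was 2 in limma voom on recovered reads and 0 with the replicate number as a block. None was higher in cKO in any of these. The block fit left out cKO replicate 4, whose number no Ctrl library shares. Its member differences therefore equal those without that library. With 1 library left out the number called ran from 1 to 7, with 7 without cKO replicate 1. The replicate numbers do not pair the libraries: correlations of same-numbered deviations were 0.115, -0.087 and -0.13. Under that block Stk24 had a difference of -2.44 and a limma adjusted p of 0.132, against 0.00469 without cKO replicate 4 and with no block. Without Ighm and Ighd, Igha took 73.4% in cKO and 92.3% in Ctrl of the remaining heavy chain FPKM. What remained was Igha and the gamma genes, among them Ighg2b, which was chosen for its difference. This share is therefore no separate support, and it was not computed without Ighg2b. Without Iglc2, Iglc3 and Iglc4, Igkc took 96.8% of light chain FPKM in cKO. Over all alternatives the median difference of all genes lay between -0.010 and 0.074. Differences of the other members, none called, ran from 0.32 to 0.95 for Ighm, 0.77 to 1.64 for Igkc, 0.26 to 1.55 for Iglc2, 0.24 to 0.85 for Jchain and 0.14 to 0.38 for Pigr. Counts of reads limit the lambda genes and the gamma genes other than Ighg2b. They also limit the Ctrl level of Ighg2b, which rests on 5, 23 and 2 reads, and so its ratio between the groups.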
